A study of Mus musculus with 10 samples.

Results

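The serpins are a family of structurally related proteins, most of which trap serine or cysteine proteases by a bait loop that springs into the inhibitor and carries the protease with it. Some members have lost this activity and serve as collagen chaperones, hormone carriers or signalling proteins. In wounded skin, secreted serpins meet the proteases of plasmin formation, coagulation and complement, whereas the intracellular clade B members of keratinocytes and leukocytes face granule proteases and lysosomal cathepsins. The mouse genome carries many more clade A3, B1, B3, B6 and B9 genes than the human genome, and most members lie in gene clusters on chromosomes 1, 12 and 13.

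Members were all rows of the deposited table whose gene symbol begins with Serpin. There were 69 such rows among 55421 genes, of which 64 held a count in at least 1 library and 5 (Serpina1f, Serpina5, Serpina7, Serpinb9d and Serpini2) were at 0 in every library. After a filter on low counts, 48 members were tested among 18509 genes and 16 with counts were not. The tissue was ulcer from db/db mice, which lack a working leptin receptor and become obese and diabetic, wounded by surgical resection. One group of 5 libraries came from ulcers treated with Fu Huang ointment on top of saline and the other group of 5 came from ulcers treated with saline alone, with 7 days of administration stated for the study. Both groups therefore share the genotype, the wound and the saline, and no library of unwounded or non-diabetic skin was analysed here. The sources used here state neither age nor sex nor the composition of the ointment. They also do not say whether each library is a separate animal, and the p-values below therefore describe variation among these samples, some of which may be technical.

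Total counts were 47.81 M to 62.9 M in ointment libraries and 58.15 M to 62.66 M in saline libraries (exact permutation test, two-sided, p = 0.0952). Markers of basal keratinocytes (10270 to 19030 CPM summed in ointment libraries, 10570 to 19230 in saline libraries; CPM is the count scaled to library size) and of fibroblasts (12360 to 43380 CPM in ointment, 26310 to 40000 in saline) were abundant in the labelled ulcer tissue. Hepatocyte markers, of the main source of several blood-borne serpins, summed to 1.39 to 2.72 CPM in ointment libraries and 0.965 to 5.09 CPM in saline libraries. Ointment 5 had the highest sum of neutrophil markers (7821 CPM) and saline 1 the highest sum of suprabasal keratinocyte markers (9763 CPM), and counts of calls are also given without both. Serpin members together held 0.490% to 0.692% of counts in ointment libraries and 0.496% to 0.731% in saline libraries, ranges that overlap.

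After ointment, Serpinb9e and Serpinb6b rose and Serpinb12 fell, and the other 45 tested members did not pass the threshold. A gene was called when its p from edgeR's quasi-likelihood test, adjusted by Benjamini-Hochberg over all genes tested, was under 0.05. Those 3 of 48 members stand beside 310 of 18509 genes (1.67%). Among all genes 0.692% were higher and 0.983% lower, against 2 members higher and 1 lower. At an unadjusted p under 0.05 there were 14 members, beside 17.1% of all genes. In 6 of the 48 tested members (Serpinb9e, Serpinb6b, Serpinb1b, Serpinb1a, Serpinb12 and Serpina9) the levels of the groups did not overlap, beside 6.54% of all genes tested. The fold changes were positive in 23 members and negative in 25, with a median log2 fold change of -0.14, beside -0.0025 for all genes tested. The 29 tested members not described singly by rule had log2 fold changes from -1.08 to 1.39, 14 positive and 15 negative, and adjusted p from 0.14 to 0.944. Without ointment 5 and saline 1, no member and 59 genes passed. Because the tissue was bulk, fewer cells of a type and less RNA per cell cannot be told apart in any of these values.

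**Figure D1:**
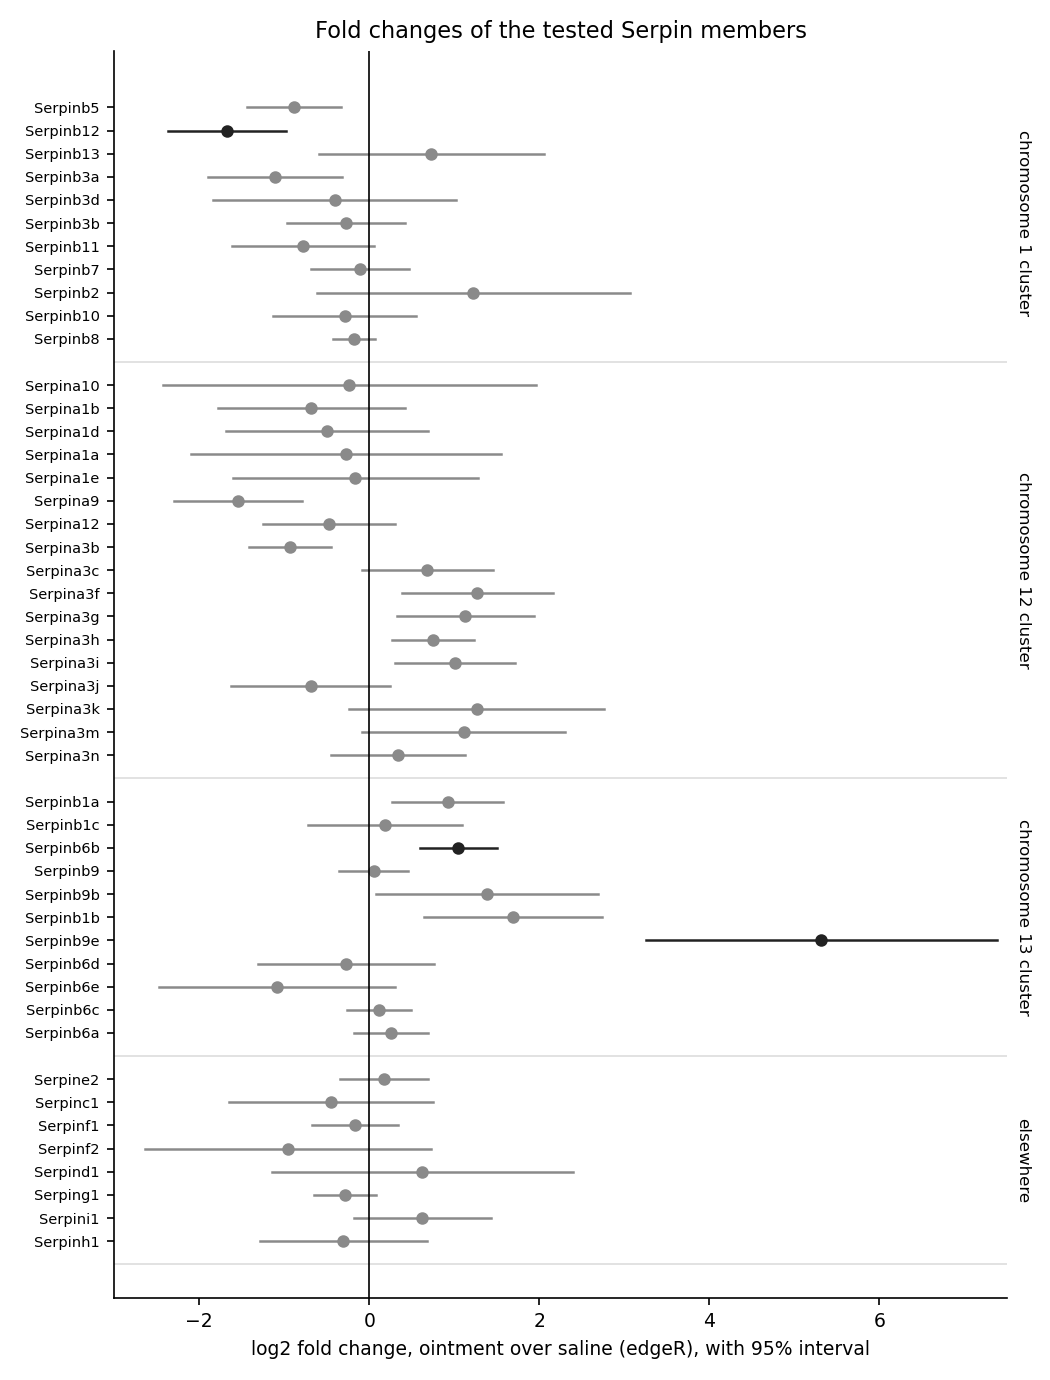
Log2 fold change, ointment over saline, of 47 tested Serpin members (points) with the 95% interval (lines), grouped by gene cluster. Black marks the 3 members past the threshold, Serpinb12 at -1.67, Serpinb6b at 1.05 and Serpinb9e at 5.32, and grey 44 others.

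The members that rose lie in the cluster on chromosome 13 (GRCm38), which holds the B1, B6 and B9 genes. Of its 17 rows, 11 were tested, 9 with a positive and 2 with a negative fold change and a median of 0.26 on the log2 scale. In 4 of the 11 tested the groups did not overlap, beside 6.54% of all genes tested. The signs were 9 positive and 2 negative under each of 3 other library scalings. The B9 genes are copies of the granzyme B inhibitor gene Serpinb9, and Serpinb9e has close relatives, among them Serpinb9f and Serpinb9g, further along the cluster. The 250 bases before the annotated RefSeq start of each (GRCm38.p6, plus strand, 5′ to 3′) are shown because the 3 copies had counts mainly in ointment libraries. They are chr13:33249358-33249607 for Serpinb9e, chr13:33323827-33324076 for Serpinb9f and chr13:33484540-33484789 for Serpinb9g. Capitals in the Serpinb9f and Serpinb9g windows mark bases that differ from the aligned Serpinb9e window.
Serpinb9e: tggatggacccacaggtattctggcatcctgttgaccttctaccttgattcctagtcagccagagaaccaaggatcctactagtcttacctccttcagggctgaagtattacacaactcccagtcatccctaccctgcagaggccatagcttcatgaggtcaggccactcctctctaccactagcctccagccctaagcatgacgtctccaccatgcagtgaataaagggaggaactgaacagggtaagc
Serpinb9f: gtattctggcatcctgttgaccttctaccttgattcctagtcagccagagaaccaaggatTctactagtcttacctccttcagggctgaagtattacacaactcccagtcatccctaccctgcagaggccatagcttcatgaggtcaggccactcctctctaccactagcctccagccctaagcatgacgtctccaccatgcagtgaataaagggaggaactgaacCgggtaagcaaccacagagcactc
Serpinb9g: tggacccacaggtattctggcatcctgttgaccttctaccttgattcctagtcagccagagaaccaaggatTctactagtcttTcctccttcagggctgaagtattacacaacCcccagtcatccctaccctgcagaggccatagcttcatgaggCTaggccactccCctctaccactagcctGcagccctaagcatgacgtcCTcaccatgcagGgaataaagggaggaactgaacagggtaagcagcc
Over the aligned stretch, the Serpinb9f window was 99.1% identical to that of Serpinb9e and the Serpinb9g window 95.9%. None of the 3 windows held the motifs searched on both strands (TATAAA of the TATA box, TGANTCA of AP-1, TTCNNNGAA of STAT factors, TTGCNNAA of C/EBP and GAGGAAGT of PU.1), which occurred in 12.4%, 6.75%, 7.02%, 9.56% and 2.44% of all 32851 windows of the same length. That says only that these letters are not in these windows.

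Serpinb9e (chr13:33249612-33260850, plus strand) had 5.54, 5.75, 3.20, 14.2 and 3.35 CPM in ointment libraries 1 to 5, against 0.0666, 0.466, 0.132, 0.127 and 0 CPM in saline libraries 1 to 5. Every ointment library was above every saline library, with ointment 4 far above the rest of its group. The log2 fold change was 5.32 (SE 0.93, edgeR adjusted p = 0.0257, 95% interval 3.26 to 7.38). The deposited counts behind it were 260, 308, 194, 794 and 177 in ointment libraries and 4, 29, 8, 8 and 0 in saline libraries. It passed the filter on low counts through its ointment libraries. The call held in 4 of 10 fits that each left out 1 library and was lost without ointment 1, 3 or 5 or saline 1, 3 or 4, with adjusted p over the 10 fits between 0.0263 and 0.0703.

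Serpinb9f and Serpinb9g were too low to be tested. Serpinb9f had counts of 10, 0, 9, 27 and 5 in ointment libraries, against 0 in all 5 saline libraries. Serpinb9g had 4, 0, 10, 20 and 12 counts in ointment libraries, against 0, 4, 0, 0 and 0 in saline libraries. Both sets of counts are small and ointment 2 had none. Of the 50-base stretches in Serpinb9e transcripts, 28.4% also occur in another gene, and the shares were 78.7% for Serpinb9f and 54.9% for Serpinb9g. Serpinb9e shared most with Serpinb9f (18.7%), whereas Serpinb9f (63.9%) and Serpinb9g (46.0%) shared most with Serpinb9h. Reads may therefore have been divided among these copies. Serpinb9c and Serpinb9h had counts only in ointment 4, of 4 and 8. The 16 members with counts that were left out of the test had 4 to 109 counts in all over the 10 libraries, and a fit without the filter called none of them. Its smallest adjusted p among them was 0.175, for Serpinb9f.

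Serpinb9, the inhibitor of granzyme B in cytotoxic cells and their neighbours, had 41.4, 22.5, 37.1, 38.5 and 31.7 CPM in ointment libraries, against 31.0, 40.1, 30.4, 25.8 and 38.01 CPM in saline libraries. Its groups overlapped throughout, and its log2 fold change was 0.05 (SE 0.18, edgeR adjusted p = 0.935). Serpinb9b was at 2.58 ± 1.62 CPM in ointment libraries and 0.983 ± 0.516 CPM in saline libraries (SD, n = 5 each), with an edgeR adjusted p of 0.261. Summed over the 8 B9 rows, levels were 43.6 ± 11.4 CPM in ointment libraries and 34.2 ± 6.28 CPM in saline libraries (SD, n = 5 each), and these sums overlapped. Serpinb9 itself, rather than Serpinb9e, held most of that sum.

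Serpinb6b (chr13:32965209-32979067, plus strand), whose product inhibits mouse granzyme A, had 11.8, 8.35, 11.4, 14.0 and 11.2 CPM in ointment libraries, against 4.94, 4.37, 6.63, 4.46 and 7.07 CPM in saline libraries. All ointment libraries lay above all saline libraries. The fold was 2.07 (log2 1.05, SE 0.20, edgeR adjusted p = 0.0349, 95% interval 0.59 to 1.504). Only 2.92% of its 50-base stretches occur elsewhere. The call held in 2 of the 10 fits that left out 1 library, without ointment 2 or saline 5, and the adjusted p went up to 0.0911. With all libraries, it was also lost with library sizes alone (edgeR adjusted p = 0.0524) and without the filter on low counts (edgeR adjusted p = 0.0552). Its relative Serpinb6a, an inhibitor of cathepsin G in many tissues, was at 616 ± 114 CPM in ointment libraries and 516 ± 131 CPM in saline libraries (SD, n = 5 each; edgeR adjusted p = 0.578), and its transcripts overlap Nqo2 and Ripk1 on the other strand. Serpinb6c was at 24.0 ± 5.60 CPM in ointment and 22.2 ± 2.52 CPM in saline libraries (SD, n = 5 each; edgeR adjusted p = 0.821).

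The human relative of the B1 genes inhibits the neutrophil proteases elastase, cathepsin G and proteinase 3. Serpinb1b had 1.21, 1.77, 1.37, 2.56 and 2.10 CPM in ointment libraries, against 0.233, 0.466, 0.231, 0.854 and 1.01 CPM in saline libraries. Although the groups did not overlap, it did not pass the threshold (log2 fold change 1.69, SE 0.47, edgeR adjusted p = 0.103). Serpinb1a, the abundant B1 gene of the tissue, named after its values were seen, had 152, 204, 151, 156 and 288 CPM in ointment libraries, against 48.0, 117, 80.9, 126 and 131 CPM in saline libraries. Here too the groups were apart, by a narrow gap, and the threshold was missed (log2 fold change 0.92, SE 0.29, edgeR adjusted p = 0.145). With the DESeq2 Wald test Serpinb1b (adjusted p = 0.0074) and Serpinb1a (adjusted p = 0.0385) passed, beside 9.09% of all genes fitted. With limma voom neither passed, beside 1.93%. The B1 rows summed to 193 ± 59.2 CPM in ointment libraries and 102 ± 35.3 CPM in saline libraries (SD, n = 5 each), without overlap.

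Some macrophage markers were also called higher, as were 0.692% of all genes tested. All 8 macrophage markers had positive fold changes and 3 (Adgre1, Cd68 and Trem2) were called higher, with summed levels of 5341 to 8578 CPM in ointment libraries and 1884 to 4342 CPM in saline libraries, which do not overlap. The 8 neutrophil markers were also all positive, but none was called and their sums overlapped, with 1687 to 7821 CPM in ointment libraries and 851.5 to 2728 CPM in saline libraries. In the T and natural killer cell list 4 of 6 were positive, none was called and the sums overlapped, with 17.6 to 27.4 CPM in ointment and 15.0 to 26.4 CPM in saline libraries. No marker of the 3 lists was at 0 in every library. The part of these cells in the Serpinb values was not tested.

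**Figure D2:**
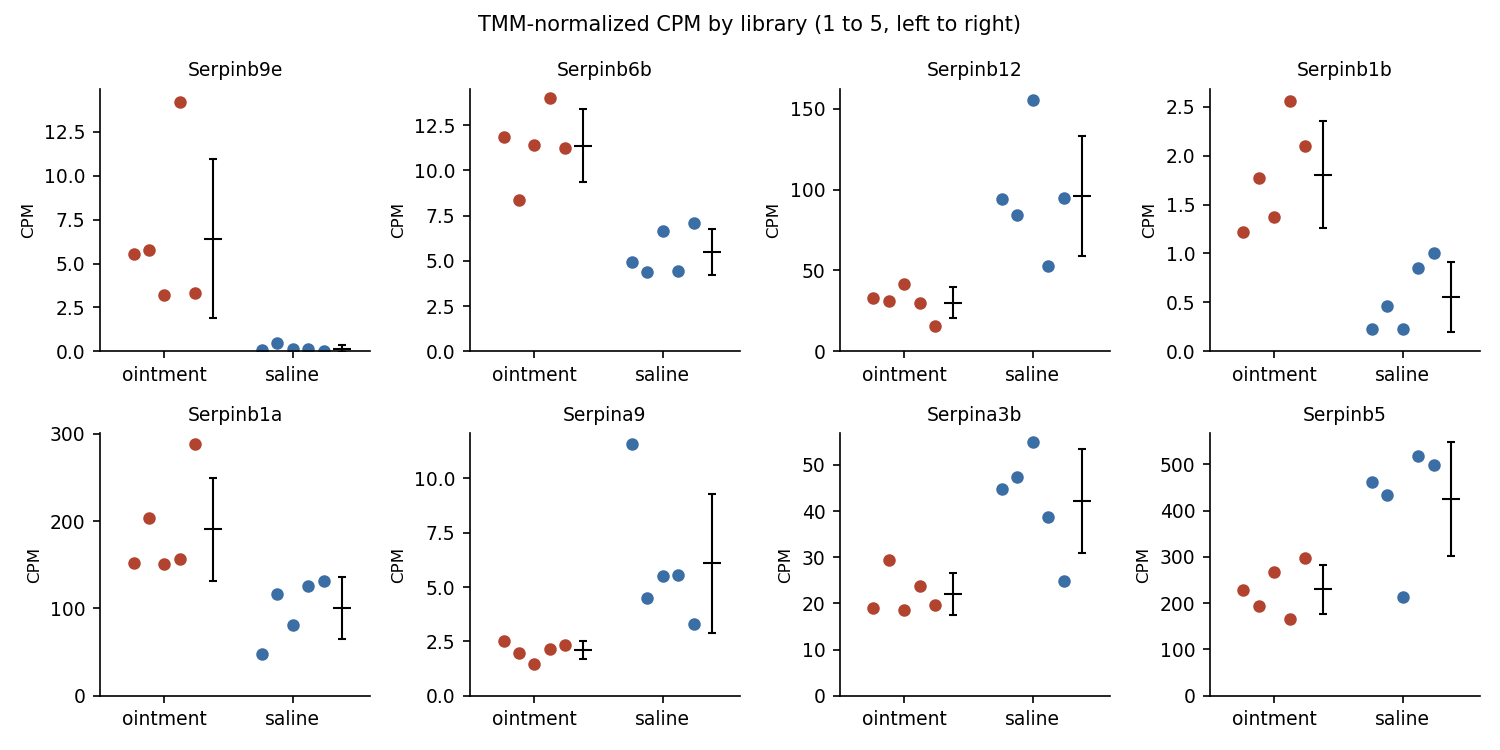
Level in CPM of 8 members in each library, ointment left and saline right, libraries 1 to 5 from left to right in each group, with the mean and SD (bars, not drawn under 0). Serpinb9e, Serpinb6b, Serpinb1b and Serpinb1a were higher in every ointment library, Serpinb12 and Serpina9 were lower in every ointment library, and Serpina3b and Serpinb5 overlapped.

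In the cluster on chromosome 1, which holds keratinocyte serpins such as maspin and the B3 genes, Serpinb12 fell and most other members had negative fold changes. Of 12 rows, 11 were tested, 2 with a positive and 9 with a negative fold change, with a median of -0.29 on the log2 scale and the same count of signs under each of 3 other scalings. The exceptions in sign were Serpinb2 and Serpinb13. Serpinb12, in human an inhibitor of trypsin-like proteases made in epithelia, lies at chr1:106934449-106957080 on the plus strand. The 250 bases before its RefSeq start (GRCm38.p6, chr1:106934199-106934448, plus strand, 5′ to 3′) are shown because it is the member that fell. Capitals mark matches to TATAAA, to TGANTCA of AP-1 and, at 2 places, to TTGCNNAA of C/EBP, on either strand.
Serpinb12: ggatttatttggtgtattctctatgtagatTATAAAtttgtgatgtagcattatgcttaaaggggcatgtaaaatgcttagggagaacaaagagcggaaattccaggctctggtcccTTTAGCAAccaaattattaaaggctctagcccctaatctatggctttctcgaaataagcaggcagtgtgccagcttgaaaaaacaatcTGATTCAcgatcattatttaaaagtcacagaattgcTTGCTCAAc
Each of these matches is a run of letters and not a shown binding site. Of 63 such windows of members, 17 held the TATAAA letters, 12 those of AP-1 and 15 those of C/EBP. The shares of all 32851 windows were 12.4%, 6.75% and 9.56%.

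Serpinb12 had 32.9, 31.1, 41.6, 29.7 and 15.8 CPM in ointment libraries, against 94.3, 84.0, 155, 53.0 and 94.6 CPM in saline libraries. Each ointment library was under each saline library. The level was 3.18-fold lower (log2 fold change -1.67, SE 0.31, edgeR adjusted p = 0.0317, 95% interval -2.36 to -0.98). None of its 50-base stretches occurs in another gene. The call held in 1 of 10 fits that left out 1 library, the fit without saline 4, and otherwise was lost, with adjusted p up to 0.0727 and log2 fold changes between -1.83 and -1.44.

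Some markers of suprabasal keratinocytes, the hair follicle and melanocytes were also called lower, as were 0.983% of all genes tested. In the suprabasal list 6 of 8 had negative fold changes and Dsc1 was called lower, with summed levels of 1118 to 2877 CPM in ointment libraries and 3412 to 9763 CPM in saline libraries, which do not overlap. The 6 basal keratinocyte markers all had negative fold changes with none called, and their sums, given above, overlapped. Of 6 markers of wound-activated keratinocytes, 3 were positive and 3 negative, and Hbegf was called higher. Their sums overlapped, at 8363 to 18090 CPM in ointment libraries and 7670 to 16650 CPM in saline libraries. The 6 inner root sheath markers of the hair follicle were all negative, 5 of them called lower. Their sums overlapped, at 9.97 to 36.4 CPM in ointment libraries and 29.0 to 668 CPM in saline libraries. The 5 melanocyte markers were all negative too, with Dct, Tyrp1 and Tyr called lower and sums of 7.27 to 14.9 CPM in ointment libraries and 27.8 to 75.1 CPM in saline libraries, which do not overlap. No marker of these lists was at 0 in every library, and the part of these cells in the Serpinb12 value was not tested.

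Serpinb5, which encodes maspin, a non-inhibitory serpin of epithelial cells, had 228, 193, 267, 166 and 297 CPM in ointment libraries, against 462, 435, 213, 519 and 498 CPM in saline libraries. Saline 3 fell among the ointment libraries and the other saline libraries lay above all of them. The log2 fold change was -0.89 (SE 0.25, edgeR adjusted p = 0.106), and without saline 3 it was -1.07 with an edgeR adjusted p of 0.0395. That was the only 1 of the 10 fits without 1 library in which Serpinb5 passed, and the edgeR adjusted p reached 0.1997. Serpinb3a, of the B3 genes whose human relative inhibits papain-like cysteine proteases, had 13.3, 6.76, 26.9, 11.6 and 18.1 CPM in ointment libraries, against 29.5, 35.7, 34.8, 46.0 and 19.3 CPM in saline libraries. The groups overlapped through ointment 3 and saline 5 (log2 fold change -1.11, SE 0.35, edgeR adjusted p = 0.145). With the DESeq2 Wald test Serpinb5 (adjusted p = 0.0203) and Serpinb3a (adjusted p = 0.0373) passed, beside 9.09% of all genes fitted. With limma voom neither passed, beside 1.93%. The 4 B3 rows summed to 43.7 ± 14.7 CPM in ointment libraries and 67.1 ± 17.8 CPM in saline libraries (SD, n = 5 each), with overlap.

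Serpinb2 encodes plasminogen activator inhibitor 2 and was among the most variable members. It had 148, 601, 398, 147 and 1659 CPM in ointment libraries, against 57.6, 692, 97.5, 243 and 173 CPM in saline libraries. Ointment 5 was highest, and the saline 2 value lay above 4 of the ointment values. The log2 fold change was 1.23 (SE 0.83, edgeR adjusted p = 0.515, 95% interval -0.61 to 3.06). Without ointment 5 it was 0.36. Among the other tested members of the cluster, Serpinb7 and Serpinb8, in each of which human loss-of-function causes a skin disease, did not pass the threshold. Serpinb7 was at 28.3 ± 9.97 CPM in ointment and 30.6 ± 6.61 CPM in saline libraries, and Serpinb8 at 28.7 ± 2.93 CPM in ointment and 32.5 ± 2.97 CPM in saline libraries (SD, n = 5 each; edgeR adjusted p 0.893 and 0.463).

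The cluster on chromosome 12 holds the A1 and A3 genes, mouse expansions of the loci for alpha-1-antitrypsin and alpha-1-antichymotrypsin, and no member of it passed edgeR's threshold. At an unadjusted p under 0.05 there were 6 of its 17 tested members, beside 17.1% of all genes. The DESeq2 Wald test called 6 (Serpina9, Serpina3b, Serpina3f, Serpina3g, Serpina3h and Serpina3i), beside 9.09% of all genes fitted, and limma voom called 0, beside 1.93%. Of 28 rows, 26 had counts and 17 were tested, 8 with a positive and 9 with a negative fold change. The positive ones were all A3 genes. Of 10 tested A3 genes, 8 were positive and 2 (Serpina3b and Serpina3j) were negative, with a median of 0.88 on the log2 scale, beside -0.0025 for all genes tested, and the counts of signs were the same under 3 other scalings. The 4 tested A1 genes were all negative, with edgeR adjusted p from 0.554 to 0.94.

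Serpina9, which in human marks germinal-centre B cells, had 2.54, 1.96, 1.44, 2.17 and 2.33 CPM in ointment libraries, against 11.6, 4.49, 5.50, 5.57 and 3.29 CPM in saline libraries. All ointment libraries were under all saline libraries, and saline 1 was far above its group. The log2 fold change was -1.54 (SE 0.34, edgeR adjusted p = 0.0564). Without saline 5 the adjusted p was 0.0432, and over the 10 fits without 1 library it reached 0.127.

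Serpina3b had 19.0, 29.3, 18.6, 23.9 and 19.6 CPM in ointment libraries, against 44.7, 47.3, 55.0, 38.7 and 24.9 CPM in saline libraries. Saline 5 lay under ointment 2 and the remaining saline libraries lay above all ointment libraries. The log2 fold change was -0.93 (SE 0.22, edgeR adjusted p = 0.0658), and without saline 5 the adjusted p was 0.0290. Serpina3b passed in only that 1 of the 10 fits without 1 library, and the edgeR adjusted p reached 0.146. Serpina3h, annotated as a transcribed pseudogene, had 12.3, 14.2, 18.7, 17.3 and 15.0 CPM in ointment libraries, against 13.7, 7.19, 7.24, 7.56 and 10.4 CPM in saline libraries. Only saline 1 reached into the ointment values (log2 fold change 0.75, SE 0.22, edgeR adjusted p = 0.115). Serpina3f had 2.39, 3.44, 8.27, 4.26 and 9.90 CPM in ointment libraries, against 2.16, 3.12, 2.58, 1.598 and 2.23 CPM in saline libraries. Ointment 3 and 5 carried the higher mean, and ointment 1 was among the saline values (log2 fold change 1.27, SE 0.40, edgeR adjusted p = 0.138).

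Neighbouring A3 genes had positive fold changes of similar size. Serpina3g was at 51.1 ± 22.7 CPM in ointment and 23.4 ± 10.2 CPM in saline libraries (SD, n = 5 each; edgeR adjusted p = 0.145). Serpina3i was at 14.7 ± 6.08 CPM in ointment and 7.33 ± 2.10 CPM in saline libraries (SD, n = 5 each; edgeR adjusted p = 0.14). Serpina3f, Serpina3g, Serpina3h and Serpina3i share up to 15.8% of their 50-base stretches pairwise, and Serpina3k and Serpina3m overlap on the same strand, so their counts may not be separate measurements.

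Serpina3n, a granzyme B inhibitor induced in injured tissue, was the A3 gene with the highest level. It had 526, 701, 452, 839.8 and 594 CPM in ointment libraries, against 191, 738, 741, 477 and 317 CPM in saline libraries. The ointment values lay within or just above the wider saline range (log2 fold change 0.34, SE 0.35, edgeR adjusted p = 0.711). Summed over the 14 A3 rows, levels were 826 ± 173 CPM in ointment libraries and 686 ± 241 CPM in saline libraries (SD, n = 5 each), with overlap, and Serpina3n made up most of both sums.

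Of the remaining members on chromosome 12, Serpina12, which encodes vaspin, an adipokine also made in epidermis, had 38.3, 25.4, 35.7, 47.3 and 19.7 CPM in ointment libraries, against 60.6, 45.6, 43.5, 17.3 and 63.8 CPM in saline libraries. Its groups overlapped, with saline 4 the lowest of the 10 libraries and ointment 4 above saline 2, 3 and 4 (log2 fold change -0.47, SE 0.35, edgeR adjusted p = 0.563). Serpina1a, for alpha-1-antitrypsin, had 0.277, 0.149, 0.0330, 0.161 and 0.227 CPM in ointment libraries, against 0.166, 0.273, 0.331, 0.253 and 0 CPM in saline libraries. These were near the limit of detection and interleaved (log2 fold change -0.28, SE 0.82, edgeR adjusted p = 0.918), and the 5 A1 copies with counts share 29% to 79% of their 50-base stretches with other genes. The A1 rows together summed to 1.74 ± 1.02 CPM in ointment libraries and 2.30 ± 0.912 CPM in saline libraries (SD, n = 5 each). The untested pseudogene Serpina3d-ps, named after its values were seen, had 0.277, 0.598, 0.165, 0.269 and 0.435 CPM in ointment libraries, against 0.0666, 0, 0, 0.0633 and 0.132 CPM in saline libraries. Its groups were apart at a level of few counts.

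Outside the 3 clusters lie 12 members, most of them the secreted serpins of matrix, coagulation and complement. Of 9 tested, 4 had a positive and 5 a negative fold change, and in none did the groups stay apart. None passed the threshold with edgeR, at an unadjusted p under 0.05, with DESeq2 or with limma voom. The shares of all genes were 1.67%, 17.1%, 9.09% and 1.93% in that order, and 6.54% had groups apart. With 9 members tested, counts of 0 cannot be told from these shares.

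Serpinh1 encodes HSP47, the collagen-specific chaperone of the endoplasmic reticulum, which does not inhibit proteases. It had 1017, 1268, 2128, 655 and 603 CPM in ointment libraries, against 1951, 2051, 575, 1646 and 778 CPM in saline libraries. Each group held both low and high libraries (log2 fold change -0.30, SE 0.44, edgeR adjusted p = 0.808). The sign turned to 0.0043 without ointment 5 and saline 1. Serping1, the C1 inhibitor of the complement and contact systems, had 895, 604, 1096, 907 and 767 CPM in ointment libraries, against 878, 1010.5, 1161, 935 and 1206 CPM in saline libraries. It varied less than Serpinh1, and the groups still overlapped (log2 fold change -0.28, SE 0.16, edgeR adjusted p = 0.431).

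Serpinf1, for the anti-angiogenic factor PEDF, had 493, 239, 446, 435 and 248 CPM in ointment libraries, against 407, 456, 467, 312 and 454 CPM in saline libraries. Ointment 2 and 5 were low and the rest interleaved (log2 fold change -0.17, SE 0.23, edgeR adjusted p = 0.783). Serpine2, for protease nexin 1, an inhibitor of thrombin and urokinase, had 197, 92.7, 174, 180.5 and 101 CPM in ointment libraries, against 114, 165, 110.0, 129 and 142 CPM in saline libraries. The same pair of ointment libraries was lowest (log2 fold change 0.18, SE 0.23, edgeR adjusted p = 0.78). The liver-made inhibitors Serpinc1 (antithrombin), Serpind1 (heparin cofactor II) and Serpinf2 (alpha-2-antiplasmin) averaged under 1 CPM in both groups. Fibroblast markers had 3 positive and 5 negative fold changes and none called, with overlapping sums.

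**Figure D3:**
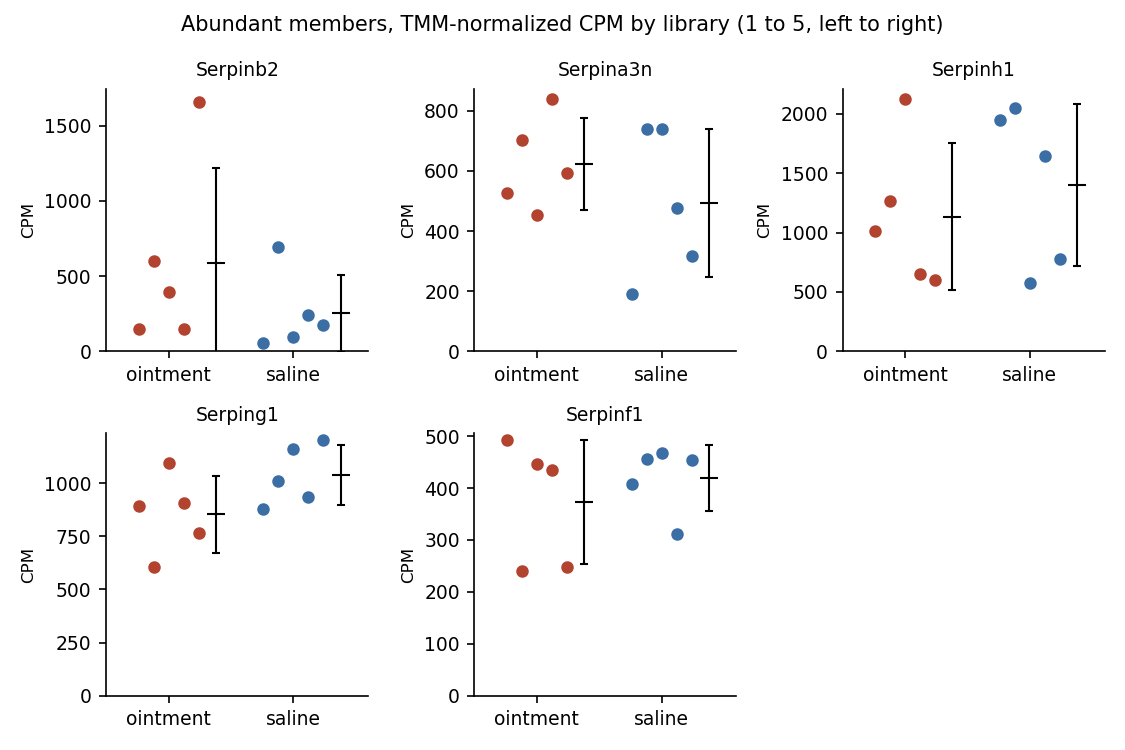
Level in CPM of 5 members with high levels per kilobase, in each library, ointment left and saline right, libraries 1 to 5 from left to right, with the mean and SD (bars, not drawn under 0). Groups overlap in all 5, and Serpinb2 is highest in ointment 5, at 1659 CPM.

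Per kilobase of exon, the order of levels over all 10 libraries began with Serpinh1 at 519 CPM per kilobase. Serping1 followed at 407, Serpina3n at 270.2, Serpinb2 at 179.5 and Serpinf1 at 168 CPM per kilobase. Serpinb5 at 119, Serpinb6a at 105 and Serpinb1a at 63.2 CPM per kilobase were lower. The order of neighbours was not fixed, since library ranges of Serpinb2 and Serpinf1 overlapped and lengths from the median transcript in place of the exon union put Serpinb6a first. The members that passed the threshold were lower still: Serpinb12 at 12.1 CPM per kilobase in ointment and 38.5 in saline libraries, Serpinb6b at 5.03 in ointment and 2.43 in saline libraries, and Serpinb9e at 3.34 in ointment and 0.0823 in saline libraries.

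**Figure D4:**
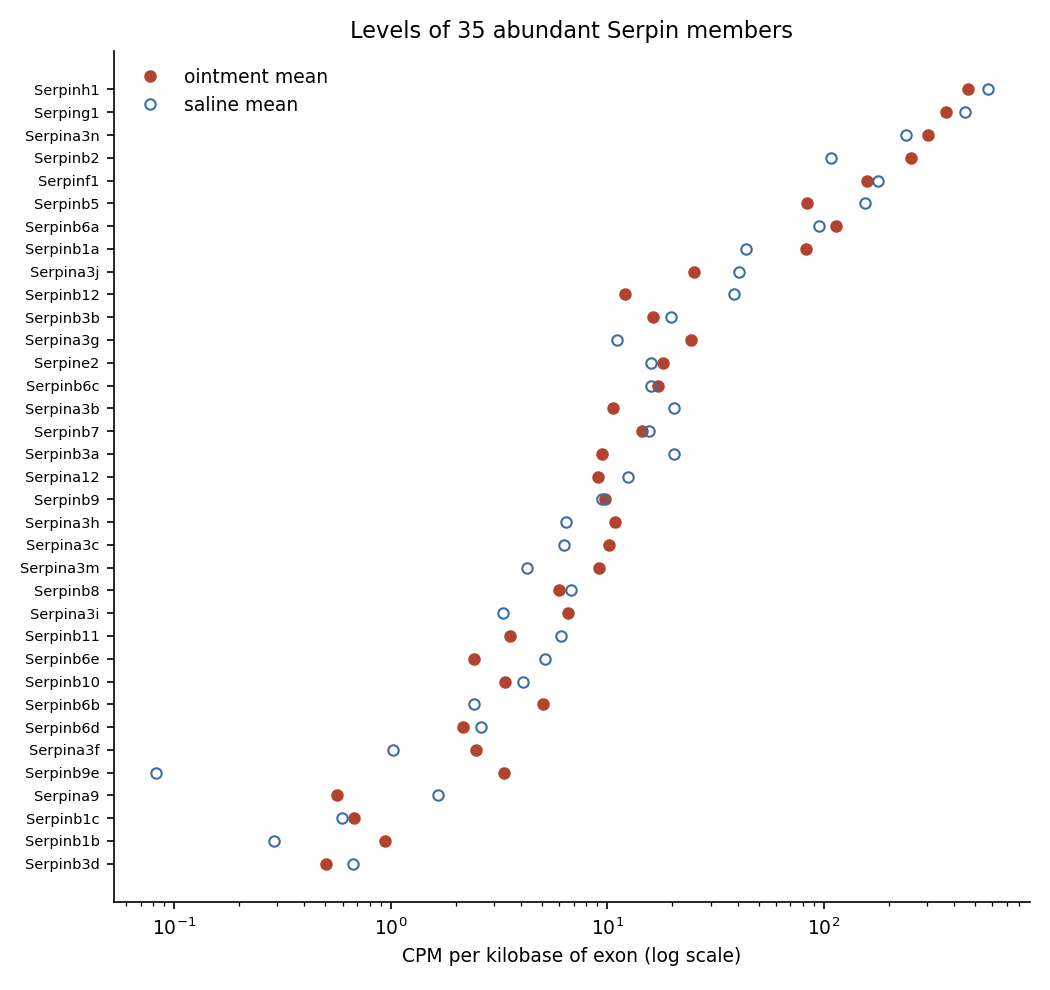
Mean level in CPM per kilobase of exon (log axis) of 35 members with high levels over all libraries, ointment as filled and saline as open circles. Serpinh1 leads at 464 in ointment and 573 in saline libraries, and the widest gap is that of Serpinb9e, at 3.34 in ointment and 0.0823 in saline libraries.

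Genes of the proteases and partners that serpins act on were taken from 6 lists. Calls in these lists stand beside 1.67% of all genes tested. An unadjusted p under 0.05 in edgeR's test was reached by 17.1% of all genes. It was reached by 6 of 10 cathepsins, 10 of 17 epidermal proteases and 5 of 20 tested plasminogen and coagulation genes. Some papain-like cysteine cathepsins, not all, are targets of cross-class serpins such as the B3 genes. Of the 10 listed, 6 had positive and 4 negative fold changes and Ctss and Ctsb rose, with a list median of 0.29 on the log2 scale. Ctss, the cathepsin of antigen-presenting cells, was at 1401 ± 236 CPM in ointment libraries and 732 ± 96.7 CPM in saline libraries (SD, n = 5 each; log2 fold change 0.94, SE 0.14, edgeR adjusted p = 0.0159) and passed in all 10 fits that left out 1 library. Ctsb was at 4567 ± 534 CPM in ointment libraries and 3177 ± 259.8 CPM in saline libraries (SD, n = 5 each; log2 fold change 0.52, SE 0.11, edgeR adjusted p = 0.0406) and passed in none of those fits, with adjusted p from 0.0513 to 0.112. Values of the macrophage markers are given above, and their part was not tested.

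Of 17 kallikrein and membrane serine proteases of the epidermis, 6 had positive and 11 negative fold changes, with a median of -0.57, and Tmprss11a and Tmprss4 fell. Tmprss11a, a membrane protease of squamous epithelium, was at 0.981 ± 0.361 CPM in ointment libraries and 3.81 ± 0.721 CPM in saline libraries (SD, n = 5 each; log2 fold change -1.96, SE 0.31, edgeR adjusted p = 0.0178). Its call was lost without ointment 3 or 5, with adjusted p up to 0.0544. Tmprss4 was at 63.2 ± 11.8 CPM in ointment libraries and 125 ± 31.3 CPM in saline libraries (SD, n = 5 each; log2 fold change -0.98, SE 0.20, edgeR adjusted p = 0.0414), and passed in 2 of the 10 fits, without ointment 2 or saline 5, with adjusted p up to 0.107. Values of the suprabasal markers are given beside Serpinb12, and their part was not tested.

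Of 26 genes of plasminogen activation and coagulation, 20 were tested, 13 with positive and 7 with negative fold changes and a median of 0.20, and F7 rose. F7, coagulation factor VII, was at 16.4 ± 3.49 CPM in ointment libraries and 6.30 ± 2.30 CPM in saline libraries (SD, n = 5 each; log2 fold change 1.38, SE 0.27, edgeR adjusted p = 0.0345), and passed in 2 of the 10 fits, without ointment 4 or saline 4, with adjusted p up to 0.0856. Plau, for urokinase, the plasminogen activator that Serpinb2 inhibits, was named after its values were seen. Plau averaged 142 ± 27.2 CPM in ointment libraries and 98.8 ± 8.39 CPM in saline libraries (SD, n = 5 each; edgeR adjusted p = 0.0966).

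Among the 3 remaining lists edgeR's test called no gene, while an unadjusted p under 0.05 was reached by 5 of 17 tested granule proteases, 1 of 16 collagen genes or partners and 5 of 11 complement genes, beside 17.1% of all genes. The DESeq2 Wald test called 4 granule proteases, 0 collagen genes or partners and 2 complement genes, beside 9.09% of all genes fitted, and limma voom called 1 complement gene and none in the other lists, beside 1.93%. Of 19 granule serine proteases of neutrophils, mast cells and cytotoxic cells, 17 were tested, 15 with positive and 2 with negative fold changes, with a median of 0.32. The smallest edgeR adjusted p values there were 0.0759 for Gzmb, a target of Serpinb9 and Serpina3n, 0.0886 for Tpsab1 and 0.129 for Mcpt2. The 16 collagen chains and collagen-folding partners of Serpinh1 divided into 8 positive and 8 negative, with a median of -0.02 and smallest edgeR adjusted p values of 0.181 for Plod1, 0.493 for Fkbp10 and 0.584 for P4ha1. Of 12 complement proteases and subunits around Serping1, 11 were tested, 4 positive and 7 negative, with a median of -0.50 and smallest edgeR adjusted p values of 0.0584 for C1s1, 0.0848 for C1rl and 0.165 for C4b.

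**Figure D5:**
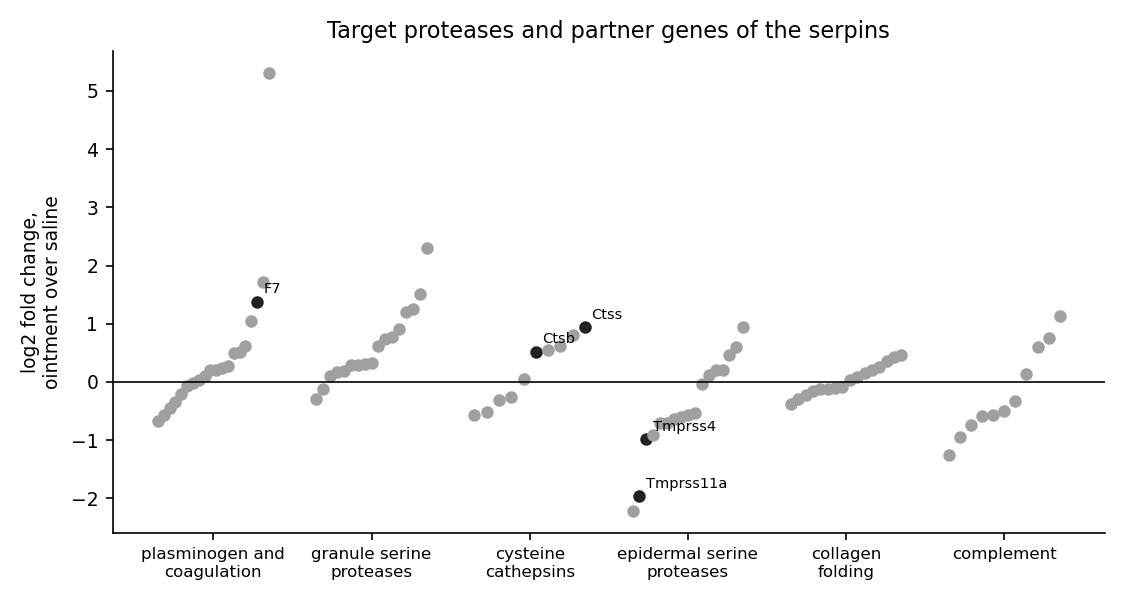
Log2 fold change, ointment over saline, of the tested genes in the 6 lists of serpin targets and partners, each point a gene, ordered within its list. Black marks the 5 genes past the threshold: Ctss and Ctsb among the cathepsins and F7 among the coagulation genes above 0, and Tmprss11a and Tmprss4 among the epidermal proteases below 0.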

How the data were processed

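Ulcer RNA was sequenced in 10 libraries, from total RNA taken with a column kit and a SMARTer mRNA library kit, per the labels' protocols. Strand is not stated to be kept, so overlapping genes on opposite strands cannot be told apart. The submitters' processing notes name the build GRCm38 (mm10), with the aligner and the counting tool not given in the sources used here. Whole-number values per gene, without normalization, were deposited by the authors and treated as estimated counts, because values such as 4, 8 and 12 were commoner than their neighbours (4 occurred 9202 times, 3 and 5 occurred 4235 and 5804 times). Columns were matched to libraries by description, and none was unmatched.

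Positions, exon lengths and shared 50-base stretches came from GENCODE M21 annotation on GRCm38, where all 69 members were found. Upstream sequence came from RefSeq on GRCm38.p6, with 54 of the 69 members matched by symbol. Windows were aligned pairwise with free ends.

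All genes were fitted with edgeR 4.0.16 in R 4.3.3 (TMM scaling, filterByExpr with minimum count 10 and minimum total 15, robust quasi-likelihood F-test, two-sided, group as the only term), with Benjamini-Hochberg adjustment over 18509 genes and a threshold of 0.05. Single library values were compared by exact permutation over 252 assignments. In simulated data, 98 genes changed 2-fold and 94 changed 4-fold among 18086 tested, and the fit made 64 calls. It recovered 11.2% of 2-fold and 53.2% of 4-fold changes, and 4.69% of its calls were false. The ulcer data gave 310 calls, and these rates may differ where more genes change. A gene that was not called may therefore still differ between the groups. Alternatives were other scalings, filters, limma 3.58.1 voom, DESeq2 1.42.0, a replicate block, values divided by 4, and libraries left out.

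The members and gene lists were chosen with earlier results of these data known. Members given in full were those past the threshold, the 3 nearest to it in each direction, the 6 highest per kilobase and 11 with a known role in skin or wounds. One of these members is not reported here. For the target lists, genes past the threshold were named, or else the 3 with the smallest p.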

Additional observations from a re-analysis of the deposited data

Results flagged for a closer look

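In 38 comparisons of a library with the rest of its group (19 members given in full, 2 groups of 5), 4 libraries stood apart from the other 4 by a gap that took up most of the group's range. Chance flags about 1 in 20 such groups when values are normally distributed, which was not checked for these CPM values. Serpinb9e was at 14.2 CPM in ointment 4, where the other ointment libraries were at 3.20 to 5.75 CPM. It was at 0.466 CPM in saline 2, where the other saline libraries were at 0 to 0.132 CPM. Serpina9 was at 11.6 CPM in saline 1, where the other saline libraries were at 3.29 to 5.57 CPM. Serpinb5 was at 213 CPM in saline 3, where the other saline libraries were at 435 to 519 CPM.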

How the results depend on the processing

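With all libraries, edgeR called 310 genes, 3 of them members. For members the range was 2 to 3 under other scalings, other filters, voom, non-robust dispersion and values divided by 4. Serpinb6b lost its call with library sizes alone and with no filter, and Serpinb9e was not tested at 5 CPM. DESeq2 called 1682 genes, of which 13 were members. Of these members, 3 lie in the cluster on chromosome 1 (Serpinb12, Serpinb3a and Serpinb5) and 6 in that on chromosome 12. The other 4 lie on chromosome 13 (Serpinb1a, Serpinb1b, Serpinb6b and Serpinb9e). With DESeq2 3 coagulation genes, 4 granule proteases, 4 cathepsins, 4 epidermal proteases and 2 complement genes also passed. Without ointment 5 and saline 1, chosen after seeing the data, 59 genes passed and 0 members, coagulation genes, cathepsins or epidermal proteases. Upper-quartile scaling and no filter each left 1 cathepsin, no filter and the filter at 5 CPM each left 1 epidermal protease, and library sizes alone and voom each called 1 complement gene. Leaving out 1 library gave 102 to 422 genes, 0 to 4 members (0 without ointment 1, 3 or 5 or saline 1, and 4 without saline 5), 0 to 1 coagulation genes, 1 to 2 cathepsins, 0 to 2 epidermal proteases and 0 to 1 complement genes. The causes of these moves were not tested. Serpina1a turned to a log2 fold change of 0.0089 with voom and Serpinh1 to 0.0043 without ointment 5 and saline 1. Of 184 values of the 19 members given in full under 10 planned settings with all libraries, 171 kept direction and side of the threshold, 5 lost the call, 7 gained it and 1 reversed.

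Libraries that share a replicate number did not deviate together (correlations from -0.0772 to 0.0562). With the replicate number as a block 0 genes and 0 members passed, and the adjusted p was 0.141 for Serpinb9e, 0.175 for Serpinb6b and 0.141 for Serpinb12. Low members such as Serpinb9f rest on few counts, and small differences between groups are not detectable for them at this depth.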
